A study of Homo sapiens with 30 samples.

Results

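The chaperone genes described here are those whose symbol starts with DNAJ, HSPA, HSPB, HSP90A, HSPD1, HSPE1 or HSPH1, together with TCP1 and the CCT2 to CCT8 subunits of the TRiC chaperonin. The endoplasmic reticulum chaperones HSPA5, DNAJB9, DNAJB11 and DNAJC3 and 4 pseudogenes were left out by the same rule, which used names and no measured value. The arrays carried 77 such genes on 92 probes. Of these, 65 genes on 79 probes were kept because some group detected them on all 3 of its arrays (detection p under 0.01), among 11526 features kept in all. The probe used met this in all 10 groups for 50 of the 65 genes and in fewer groups for 15. The kept genes were 4 of 4 DNAJA, 8 of 10 DNAJB and 24 of 27 DNAJC genes, 11 of 13 HSP70 and HSP110 genes, both HSP90A genes, both genes of the mitochondrial chaperonin, 10 of 10 TRiC genes, 2 of 7 small heat shock protein genes and 2 genes, HSPBP1 and HSPBAP1, that enter by their prefix. The names do not restrict the set to the cytosol and mitochondria: DNAJC10, DNAJC1, DNAJC14, DNAJB12, DNAJB14 and HSPA13 are known as endoplasmic reticulum proteins, CCT8L2 is a CCT8-like gene and DNAJC25-GNG10 is a readthrough transcript.

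HSP70 proteins bind unfolded stretches of a client protein and release them in a cycle driven by ATP. J-domain proteins (the DNAJ families) bring clients and speed ATP use, while nucleotide exchange factors such as the HSP110 proteins reopen the cycle. HSP90 acts later on partly folded clients such as kinases and steroid receptors, TRiC is a ring-shaped chamber in which actin and tubulin fold, and HSPD1 with its lid HSPE1 forms the chamber of the mitochondrial matrix. Under proteotoxic stress the transcription factor HSF1 binds heat shock elements and raises transcription of many of these genes.

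RNA was measured in the colon adenocarcinoma line HCT116, an established human line, as wild-type cells (WT) and as isogenic cells lacking the tumour suppressor p53 (p53KO); the labels do not say how many clones stand behind each. Cells of each genotype were left untreated or were treated over 16 hours with actinomycin D at 1, 10 or 100 nM, a DNA-binding blocker of transcription (first that of ribosomal RNA at low doses), or with nutlin-3 at 4 µM, which keeps MDM2 from binding and inhibiting p53. There were 10 groups of 3 arrays. Since nothing in the labels says that the 3 arrays of a group stand for separate cultures, a p-value here measures the spread between arrays alone, which may be technical.

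All values are log2 bead intensities after background correction and quantile normalisation, a difference is a difference of such group means with its standard error (SE, n = 3 arrays a group), and a gene was called at limma's Benjamini-Hochberg adjusted p under 0.05. Before normalisation the 6 arrays of 100 nM were dim: their 75th percentile of intensity lay between 100.7 and 134.8 with 10101 to 10690 probes detected, against 133.1 to 305.6 and 11338 to 12629 on the other 24. Whether fewer cells or less RNA per cell lies behind this cannot be told apart. Values without quantile normalisation are given beside results of named chaperone genes whose call or direction they change. PROM1, a cell surface glycoprotein gene, was detected on 12 of 12 WT and 0 of 12 p53KO arrays without nutlin, yet not (4.36) on the third WT nutlin array and clearly (9.07) on the third p53KO nutlin array, so these 2 arrays go against their labels and the nutlin results rest on them. All groups share the model's estimate of spread, so both arrays also enter the standard errors of the other contrasts. This includes the untreated comparison and the tests of the difference between genotypes. The first untreated array of each genotype was on a different slide from the other 2 and also stood apart. There 8 chaperone genes lay over 0.5 from the mean of the other 2 untreated arrays, in the same direction in both genotypes. DNAJB6 and DNAJC27 were higher there, and CCT3, CCT7, DNAJC12, DNAJC25-GNG10, HSPA4 and HSPB1 lower. Of 12 epithelial marker genes 7 were detected on all 30 arrays and VIL1 on none. Of 12 markers of other cell types 0 were detected on all 30 and 6 on none.

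At 100 nM actinomycin D the chaperone genes split. In WT cells 19 of the 65 were called higher and 19 lower, where 65.7% of all features were called (33.2% higher, 32.5% lower). In p53KO cells 18 were higher and 21 lower, where 66.1% of all features were called (33.8% higher, 32.3% lower), so the share of chaperone genes called was near that of all features in both genotypes. The median chaperone difference stood at 0.16 for WT cells and 0.00 for p53KO cells, against 0.04 and 0.03 over all features. Calls matched in direction for 34 genes (16 higher, 18 lower) and opposed for 0, with both responses taken against their own untreated arrays. The share of all features with matching calls was not computed, so these counts are not read as particular to chaperone genes. No array of 100 nM shared a slide with an untreated array, so slide and dose cannot be told apart. With the slide as a random block 33 chaperone genes were called in WT and 34 in p53KO cells. Without quantile normalisation the split moved to 5 higher and 31 lower in WT and 4 and 29 in p53KO cells. All 11526 features then gave 526 higher and 6889 lower in WT and 539 and 6376 in p53KO cells, and the median of all features shifted to -0.80 and -0.69, so a rise below means a rise relative to the bulk of features unless stated otherwise.

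**Figure D1:**
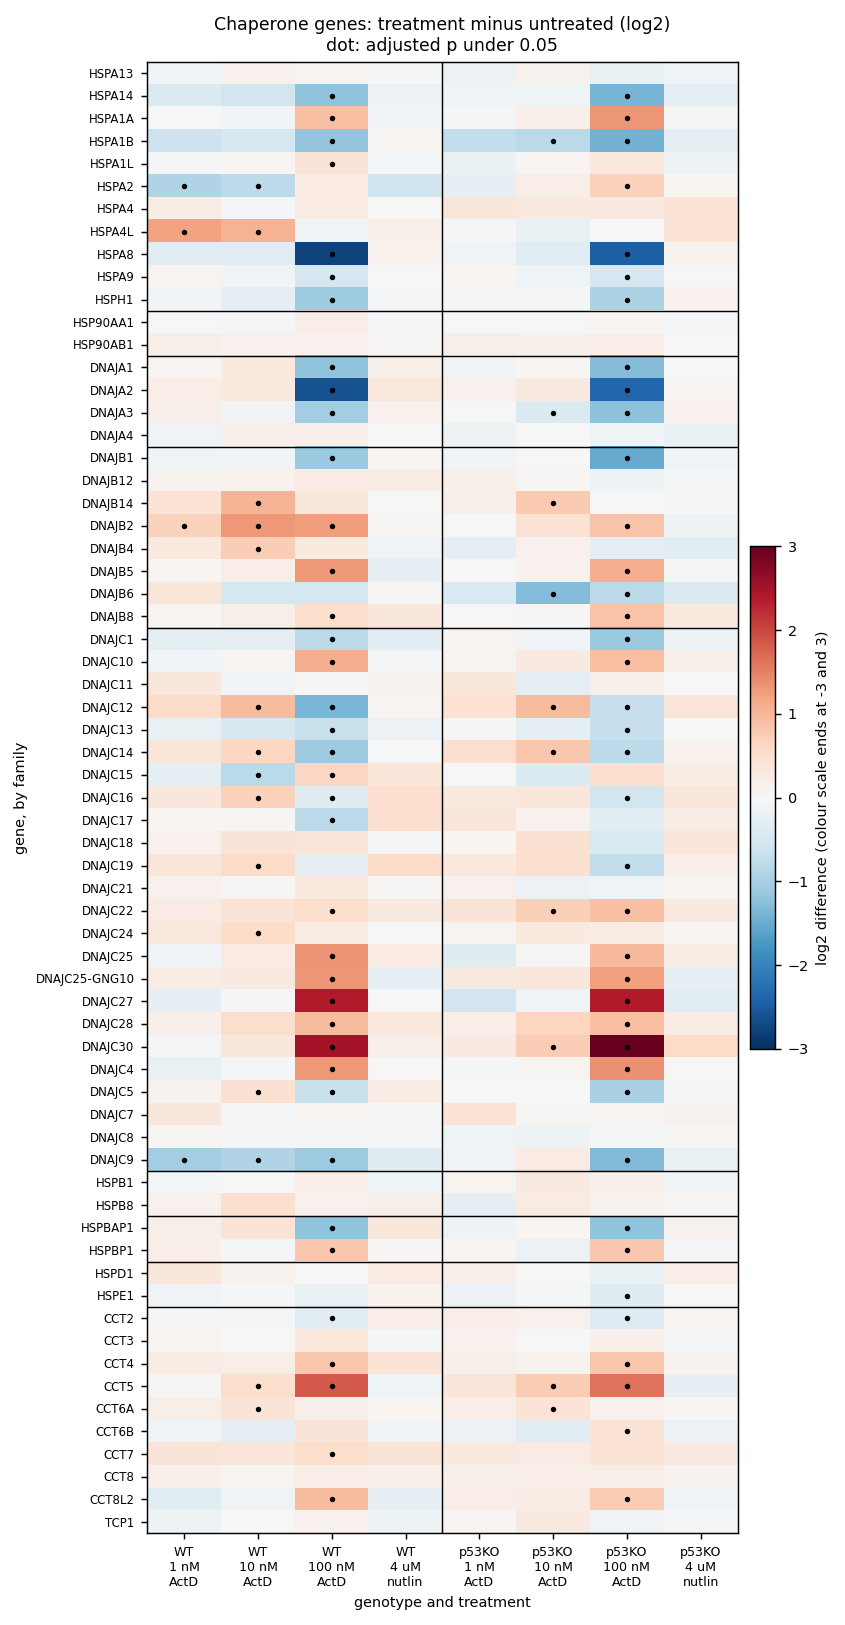
Heat map of the log2 difference from untreated cells of the same genotype for the 65 chaperone genes (grouped by role, vertical axis) in the 8 treatments (horizontal axis), colour running from -3 to 3 and a dot marking an adjusted p under 0.05. The 100 nM columns of both genotypes carry most dots, with HSPA8 and DNAJA2 lowest and DNAJC30 and DNAJC27 highest, and the nutlin columns carry none.

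Among the HSP70 and HSP110 genes, 2 of 11 were called higher and 5 lower at 100 nM in each genotype. The 2 higher genes in WT cells were near background: HSPA1A, described next to HSPA1B, and HSPA1L (0.38), which was detected on no WT 100 nM array and on 1 untreated one, so no fold is given. HSPA8, the constitutive cytosolic HSP70 that serves most client folding, read 13.31, 13.66 and 13.63 on untreated WT arrays and 10.62, 10.67 and 10.96 at 100 nM, and 13.26, 13.72 and 13.77 against 11.16, 11.08 and 11.19 in p53KO cells. All 6 treated arrays lay more than 2 log2 units under every untreated array. The difference was -2.78 ± 0.15 (adjusted p 3.7e-14) in WT and -2.44 ± 0.15 (adjusted p 4.8e-13) in p53KO cells, and a second HSPA8 probe gave -2.85 and -2.48. Without quantile normalisation the HSPA8 differences were -3.07 and -2.71 in the same order.

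The stress-inducible HSP70 gene HSPA1B read 12.73, 12.54 and 12.54 on untreated WT arrays, 11.29, 11.29 and 11.66 at 100 nM, and in p53KO cells 13.01, 13.19 and 13.22 against 11.65, 11.73 and 11.77. The groups did not overlap in either genotype. HSPA1B fell by 1.19 ± 0.24 (adjusted p 0.00013) in WT and by 1.42 ± 0.24 (adjusted p 1.4e-05) in p53KO cells. The probe named for its near-identical copy HSPA1A was detected on 0 of the 6 untreated arrays (4.24 to 4.33) and on 5 of the 6 arrays of 100 nM: 5.25 and 5.63 in WT, where the third array read 4.73 and was not detected, and 5.64, 5.51 and 5.63 in p53KO cells. HSPA1A was kept only through the p53KO group of 100 nM and had to be high there. It was at least 1.37-fold higher at 100 nM in WT and at least 1.76-fold in p53KO cells, but in the authors' processed intensities, floored at 16, both differences were 0.01 and both calls were gone. Signal of one copy on the other's probe cannot be told apart here, so both assignments are uncertain.

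HSPH1, an HSP110 exchange factor that also works with HSP70 in dissolving aggregates, read 11.62, 11.88 and 11.91 untreated and 11.08, 10.60 and 10.53 at 100 nM in WT cells. It fell without overlap, by 1.07 ± 0.17 (adjusted p 4.8e-06), and by 0.94 (adjusted p 2.3e-05) in p53KO cells. HSPA14, an HSP70 that associates with ribosomes, fell as well (-1.21 in WT, -1.39 in p53KO cells). HSPA4, another HSP110 gene, was not called: its difference stood at 0.24 (WT) and 0.27 (p53KO), and the untreated WT arrays spread from 8.13 to 9.72. HSPA4L, the HSP110 gene closest to it in name, was at -0.09 and 0.00 and was not called, but at -1.40 and -1.24, both called, without quantile normalisation. HSPA6, the strictly stress-induced HSP70, was not detected on all arrays of any group and was not tested.

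Of the J-domain genes that serve cytosolic HSP70, DNAJA2, DNAJA1 and DNAJB1 fell. DNAJA2 read 10.45, 10.42 and 10.50 on untreated WT arrays and 7.57, 7.82 and 8.15 at 100 nM; in p53KO cells it read 10.74, 10.76 and 10.78 against 8.52, 8.07 and 8.50. Its differences were -2.61 ± 0.14 (adjusted p 2.9e-14) and -2.39 ± 0.14 (adjusted p 1.6e-13), beside HSPA8 the lowest chaperone difference in each genotype. DNAJA1 went from 12.28, 12.24 and 12.17 to 10.86, 11.03 and 11.17 in WT and from 12.61, 12.49 and 12.62 to 11.29, 11.11 and 11.38 in p53KO cells. Its differences were -1.21 ± 0.14 (adjusted p 8.9e-08) and -1.31 ± 0.14 (adjusted p 2.3e-08), and no treated array reached an untreated one. DNAJA3, whose protein works in mitochondria, fell as well (-1.05 and -1.23). The remaining DNAJA gene, DNAJA4, was not called in either genotype, so 0 of 4 were called higher and 3 of 4 lower in both; without quantile normalisation all 4 were called lower.

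DNAJB1, the stress-inducible HSP40, read 9.99, 9.86 and 10.00 untreated and 8.58, 8.78 and 9.12 at 100 nM in WT cells, and 10.29, 10.56 and 10.63 against 8.87, 9.10 and 8.97 in p53KO cells. The differences were -1.12 ± 0.23 (adjusted p 0.00012) and -1.51 ± 0.23 (adjusted p 2.6e-06) with no overlap between groups. Other DNAJB genes were called higher. DNAJB2, whose protein binds ubiquitinated clients, was higher by 1.25 in WT and 0.85 in p53KO cells, and DNAJB5 by 1.29 and 1.10 (at least 1.99-fold in p53KO cells, where untreated arrays did not detect it). The third gene called higher in each genotype was DNAJB8 (0.52 and 0.85), which no untreated or 100 nM WT array detected, so no fold is given there. The family count was 3 of 8 higher with 1 lower in WT and 3 with 2 lower in p53KO cells, and 0 higher with 5 lower in both without quantile normalisation, where DNAJB2 stood at 0.40 and -0.04 and DNAJB5 at 0.27 in each.

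**Figure D2:**
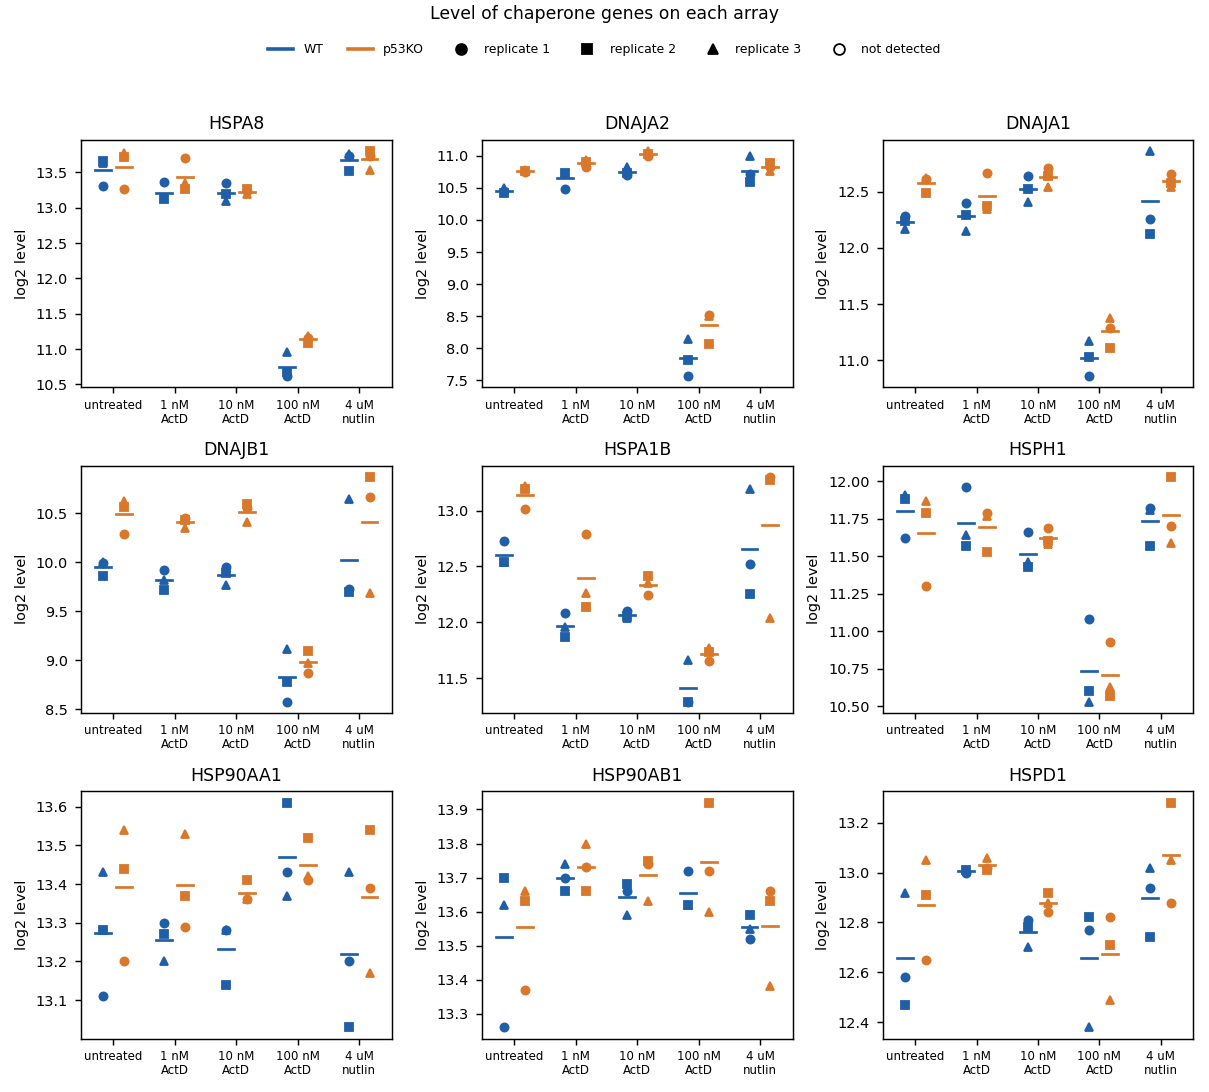
Normalised log2 level (vertical axis) of 9 chaperone genes on each of the 30 arrays, by treatment (horizontal axis) and genotype, 1 point per array with the group mean as a bar. HSPA8, DNAJA2, DNAJA1, DNAJB1, HSPA1B and HSPH1 drop at 100 nM in both genotypes, while HSP90AA1, HSP90AB1 and HSPD1 overlap between untreated and 100 nM arrays.

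Promoters were searched for the heat shock element in windows from 250 bases before to 50 after each gene start (RefSeq, GRCh38.p14). The letters GAANNTTCNNGAA or TTCNNGAANNTTC, which are each other's reverse complement and so cover both strands, occurred in 172 of 35116 windows (0.49%). Of the 81 windows of chaperone genes 6 held them (7.41%). These belong to 6 of the 60 chaperone genes with a window: HSPA8, HSP90AA1, HSP90AB1, HSPD1, DNAJA1 and DNAJB6. The shorter GAANNTTC or TTCNNGAA, which the longer letters contain, occurred in 13.5% of all windows. They occurred in 22 of the 81 chaperone windows (27.2%), from 21 chaperone genes. A match describes letters and not a bound site, and the genes that hold it include both fallers (HSPA8, DNAJA1) and genes not called (HSP90AA1, HSP90AB1, HSPD1). The 250 bases before the start are shown for a gene of each kind, with the longer letters in capitals. They are also shown for HSPA1B, which fell and holds only the shorter letters, capitalised there. A further match of HSP90AA1 to the shorter letters, 68 bases before its start, is in lower case. Each is on the gene's strand.
HSPA8 promoter (minus strand, chr11:123062137-123062386, GRCh38.p14): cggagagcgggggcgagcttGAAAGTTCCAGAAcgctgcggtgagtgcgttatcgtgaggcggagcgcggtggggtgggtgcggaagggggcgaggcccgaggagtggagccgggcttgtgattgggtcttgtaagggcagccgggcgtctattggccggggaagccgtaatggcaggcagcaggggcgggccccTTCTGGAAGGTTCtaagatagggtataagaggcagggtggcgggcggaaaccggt
HSP90AA1 promoter (minus strand, chr14:102087045-102087294, GRCh38.p14): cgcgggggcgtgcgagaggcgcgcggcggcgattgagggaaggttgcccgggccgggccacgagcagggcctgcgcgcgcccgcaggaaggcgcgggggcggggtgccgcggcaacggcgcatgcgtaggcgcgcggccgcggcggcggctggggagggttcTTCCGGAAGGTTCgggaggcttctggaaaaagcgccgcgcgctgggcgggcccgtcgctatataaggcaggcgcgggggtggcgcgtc
HSPA1B promoter (plus strand, chr6:31827488-31827737, GRCh38.p14): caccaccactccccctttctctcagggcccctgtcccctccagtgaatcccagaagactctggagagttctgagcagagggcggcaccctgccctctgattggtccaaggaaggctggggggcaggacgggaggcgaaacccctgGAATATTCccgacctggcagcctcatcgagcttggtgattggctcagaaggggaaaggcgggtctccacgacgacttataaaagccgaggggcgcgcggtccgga

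HSPA8 thus carries the longer letters 230 and 55 bases before its start and HSP90AA1 88 bases before it, while the shorter letters of HSPA1B begin 105 bases before its start. The HSP90 genes themselves were not called at 100 nM. HSP90AA1, the inducible cytosolic HSP90, read 13.11, 13.28 and 13.43 untreated and 13.43, 13.61 and 13.37 at 100 nM in WT cells; the difference was 0.19 ± 0.13 (adjusted p 0.17) in WT and 0.05 ± 0.13 (adjusted p 0.72) in p53KO cells. HSP90AB1, the constitutive form, stood at 0.13 and 0.19. Neither was called with or without quantile normalisation. The small heat shock protein genes, whose products hold unfolded proteins without ATP, were not called either: HSPB1 stood at 0.21 and 0.16 and HSPB8 at 0.12 and 0.11. HSPBAP1, a partner of HSPB1, fell (-1.21 and -1.20), and HSPBP1, an exchange factor of HSP70, was higher by 0.81 in both genotypes but at -0.47 and -0.40, not called, without quantile normalisation.

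Of the mitochondrial chaperones, HSPA9 fell in both genotypes and the chaperonin was called in p53KO cells alone, through HSPE1. HSPA9, the matrix HSP70 that pulls in imported proteins, read 12.23, 12.25 and 12.41 untreated and 11.97, 11.73 and 11.65 at 100 nM in WT cells, a fall of 0.51 ± 0.12 (adjusted p 0.00085) without overlap, and fell by 0.51 in p53KO cells too. The chaperonin HSPD1 was at -0.01 and -0.20 and was not called. Its lid HSPE1 was at -0.23, not called, in WT and fell by 0.37 in p53KO cells, from 13.71, 13.84 and 13.92 to 13.54, 13.48 and 13.33, but without quantile normalisation the p53KO difference of HSPE1 was -0.16 and not called. The WT and p53KO responses of HSPE1 were not called as different.

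Of the 10 genes grouped as TRiC by symbol, 4 were called higher and 1 lower in both genotypes at 100 nM. The median was 0.35 in WT and 0.29 in p53KO cells. The group includes the CCT8-like gene CCT8L2, which is among the higher calls. The share called was 50% in each genotype, against 65.7% and 66.1% of all features. CCT5 carried the largest change: 7.0, 6.86 and 7.24 untreated and 8.74, 9.06 and 8.85 at 100 nM in WT cells, and 7.37, 7.51 and 7.47 against 9.05, 9.19 and 9.03 in p53KO cells. All treated arrays lay above all untreated ones, by 1.85 ± 0.18 (adjusted p 1.7e-09) and 1.64 ± 0.18 (adjusted p 1.4e-08). Without quantile normalisation CCT5 was still called higher in WT cells (0.67) but not in p53KO cells (0.55). CCT4 was higher by 0.83 ± 0.18 (adjusted p 0.00023) in WT and 0.83 (adjusted p 0.00021) in p53KO cells, and turned to -0.43 and -0.26 without that step. CCT2 fell (-0.35 and -0.38), but the WT call was lost without the third 100 nM array (-0.22) or the second or the third untreated array (-0.34 and -0.28), and the p53KO call without the third 100 nM (-0.31) or the third untreated array (-0.34). CCT8L2 was higher by 0.93 and 0.76, and CCT6B by 0.41 in p53KO cells (0.38, not called, in WT), but without quantile normalisation CCT8L2 stood at -0.23 and -0.17, not called, and CCT6B was called lower (-0.65 in WT, -0.54 in p53KO cells). The p53KO call of CCT6B was also lost with the slide as a random block (0.45) and without the 4 arrays that stand apart (0.32). Without quantile normalisation CCT2 (-0.22 and -0.24) and CCT7 in WT cells (0.32) were not called. CCT7 was called in WT cells (0.52) and stood at 0.40 (adjusted p 0.077) in p53KO cells, and the WT call was lost without the first untreated array, which left 0.27, or without the first or second 100 nM array (0.48 and 0.44). TCP1 (0.13 and -0.10), CCT3 (0.32 and 0.15), CCT6A (0.16 and 0.14) and CCT8 (0.20 and 0.18) were not called, so genes for subunits of 1 ring gave differences from 1.85 to -0.35 in WT cells.

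DNAJC genes, a mixed family tied to one another by the J-domain alone, went both ways: 9 of 24 higher and 8 lower in WT and 8 and 8 in p53KO cells, and 3 higher with 13 lower and 3 with 12 without quantile normalisation. The genes called lower include DNAJC1 and DNAJC16, which no 100 nM array detected. DNAJC16 was undetected on untreated WT arrays too, so no fold is given. DNAJC1 was at least 1.03-fold lower in WT and 1.16-fold in p53KO cells. In the authors' processed intensities neither gene was called in either genotype. DNAJC30, a mitochondrial protein linked to the respiratory chain, read 5.15, 5.10 and 5.34 untreated and 7.68, 7.74 and 7.69 at 100 nM in WT cells, and 4.58 (not detected), 5.06 and 5.04 against 8.26, 8.26 and 8.17 in p53KO cells. It rose by 2.50 ± 0.15 (adjusted p 4.5e-13) and 3.34 ± 0.15 (adjusted p 3.6e-15), the highest chaperone difference in each genotype, and remained higher by 1.27 and 2.16 without quantile normalisation. Its WT response was 0.83 below its p53KO response, which did not pass the test of the difference (adjusted p 0.15). The difference of the DNAJC30 responses was called with the slide as a random block (-0.86, adjusted p 0.043) or a fixed block (-0.87, adjusted p 0.037) and in the authors' processed intensities (-0.66, adjusted p 2.6e-09). DNAJC27, which joins a Rab-like GTPase to a J-domain, went from 7.03, 6.16 and 6.54 to 8.86, 8.91 and 9.14 in WT and from 7.48, 6.40 and 6.72 to 9.18, 9.21 and 9.36 in p53KO cells. It rose by 2.39 and 2.38, and was higher by 1.24 and 1.32 without quantile normalisation.

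Further DNAJC genes were called higher only relative to the bulk. DNAJC4 was higher by 1.29 in WT and 1.36 ± 0.18 (adjusted p 4.7e-07) in p53KO cells and DNAJC25 by 1.35 ± 0.16 and 0.98, but without quantile normalisation DNAJC4 stood at 0.10 and 0.37 and DNAJC25 at 0.15 and -0.17, none of them called. On the other side, DNAJC12, a co-chaperone of aromatic amino acid hydroxylases, read 6.27, 6.92 and 6.88 untreated and 5.47, 5.01 (not detected) and 5.47 at 100 nM in WT cells. The difference of DNAJC12 was -1.37 ± 0.27 (adjusted p 8.2e-05) in WT and -0.68 ± 0.27 (adjusted p 0.028) in p53KO cells. The p53KO call was lost in the authors' processed intensities, and other DNAJC12 probes gave -0.04 and -0.38 in p53KO cells. DNAJC9, a histone chaperone of H3 and H4, fell from 11.62, 11.04 and 11.14 to 10.23, 10.06 and 10.22 in WT and from 11.64, 11.30 and 11.40 to 10.29, 9.93 and 10.17 in p53KO cells, with no overlap (-1.10 and -1.32). Both fell further without quantile normalisation, to -2.17 and -1.33 for DNAJC12 and -1.76 and -1.98 for DNAJC9.

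**Figure D3:**
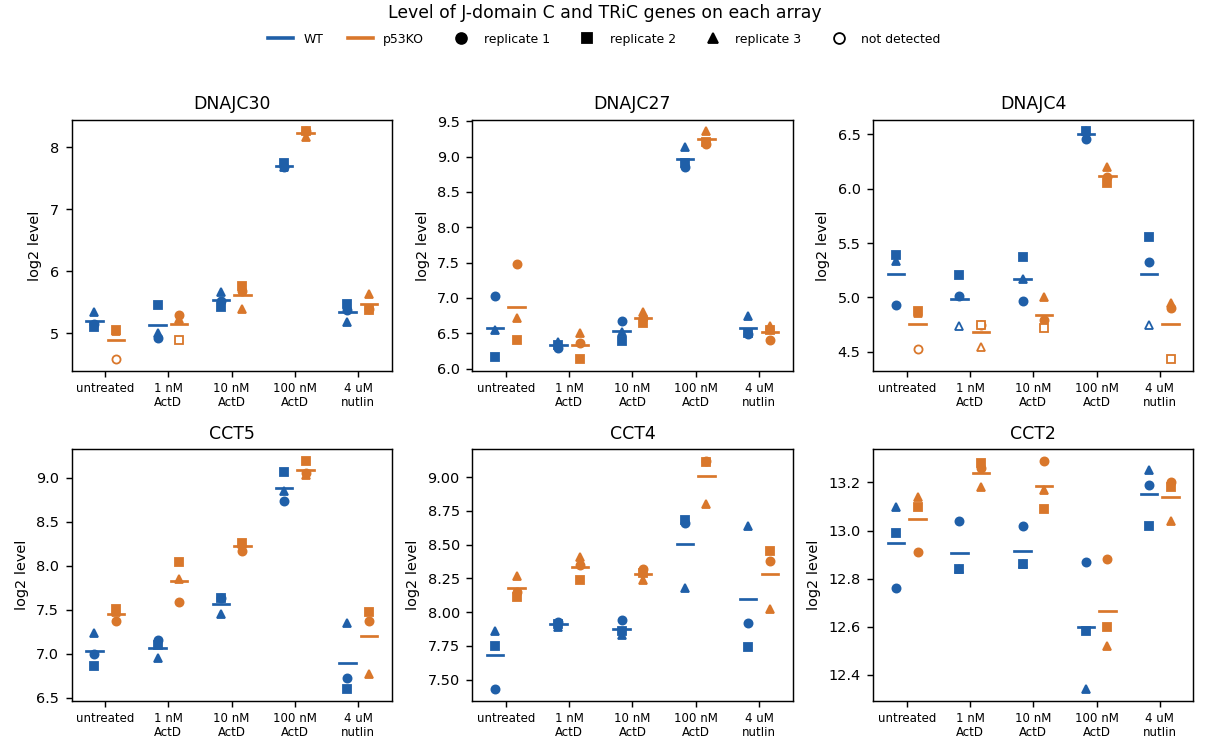
Normalised log2 level (vertical axis) of DNAJC30, DNAJC27, DNAJC4, CCT5, CCT4 and CCT2 on each array, by treatment and genotype, 1 point per array with the group mean as a bar. The first 5 are highest at 100 nM in both genotypes and CCT2 is slightly lower there.

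**Figure D4:**
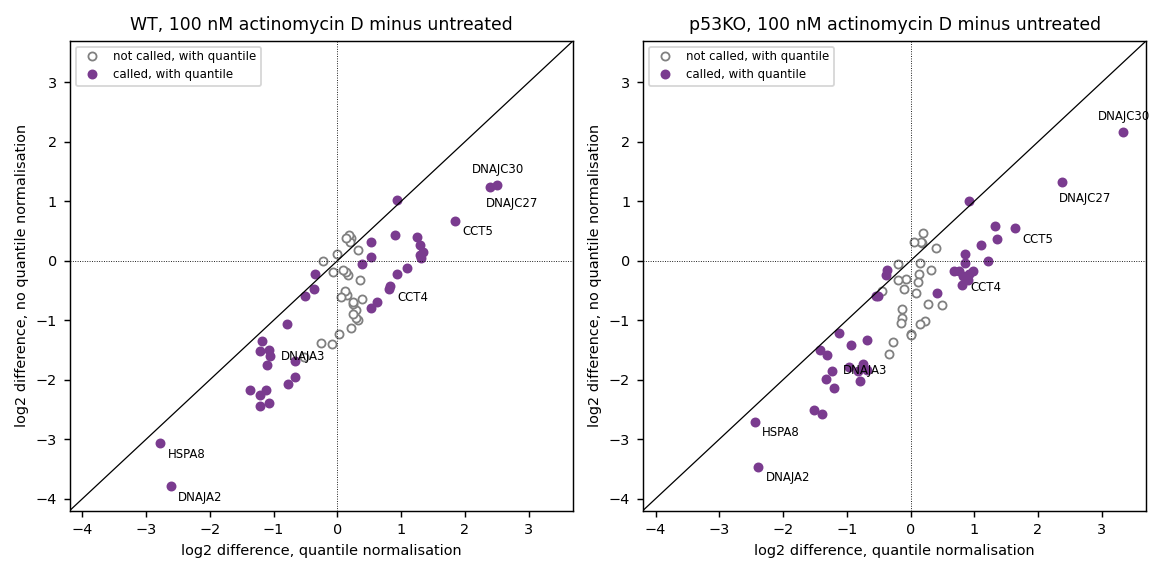
Difference at 100 nM without quantile normalisation (vertical axis, log2) against the difference with it (horizontal axis, log2) for the 65 chaperone genes in WT and p53KO cells, 1 point per gene. Most points lie under the diagonal; HSPA8 and DNAJA2 are low and DNAJC30 and DNAJC27 high on both axes, while CCT4 changes sign.

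Setting 100 nM against 10 nM leaves out the untreated arrays. In WT cells 16 chaperone genes were higher and 20 lower at 100 than at 10 nM, where 64.6% of all features were called (32% higher, 32.6% lower). In p53KO cells 17 were higher and 22 lower, where 64.8% of all features were called (32.3% higher, 32.5% lower). DNAJA2 (-2.90 in WT, -2.66 in p53KO), HSPA8 (-2.46 and -2.09), DNAJC12 (-2.33 and -1.62) and DNAJC14 (-1.70 and -1.60) were the lowest in both genotypes. DNAJC27 (2.44 and 2.53) and DNAJC30 (2.17 and 2.61) were the highest. WT arrays of the 2 doses shared 2 slides, and all 36 called WT genes kept their direction within each slide. The same arrays gave the calls, so this match was largely set beforehand and is no separate test of a slide effect. With the slide as a fixed block all 36 were still called. In p53KO cells the 2 doses were on different slides, so slide and dose cannot be told apart there. Without quantile normalisation the splits were 3 higher to 34 lower in WT and 3 to 50 in p53KO cells.

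At 10 nM fewer chaperone genes were called than at 100 nM. In WT cells 12 chaperone genes were higher and 3 lower than untreated, where 30.9% of all features were called (15.6% higher, 15.4% lower). In p53KO cells 7 were higher and 3 lower, where 21.6% of all features were called (10.4% higher, 11.2% lower), and without quantile normalisation 19 were higher and 0 lower with the median of all features at 0.38. Leaving out the first WT 10 nM array or the first WT untreated array cut the 15 WT calls to 8 and 9. Treated and untreated arrays were on different slides, and with the slide as a random block 6 calls in WT and 4 in p53KO cells were left. HSPA8 stood at -0.32 in WT and -0.35 in p53KO cells and was not called, but without the 4 arrays that stand apart it was called lower in both (-0.43 and -0.51), and HSPA1B was called lower in WT cells too (-0.47). The 5 genes called higher in both genotypes were CCT5, CCT6A, DNAJB14, DNAJC12 and DNAJC14. The share of all features called higher in both was not computed.

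DNAJB14, a J-domain protein of the endoplasmic reticulum membrane, read 6.60, 6.74 and 6.84 untreated and 8.01, 7.59 and 7.60 at 10 nM in WT cells. It rose by 1.01 ± 0.17 (adjusted p 0.00011) in WT and 0.78 ± 0.17 (adjusted p 0.0022) in p53KO cells, and all treated arrays were above all untreated ones. DNAJC12 rose by 0.96 ± 0.27 (adjusted p 0.0074) and 0.94 ± 0.27 (adjusted p 0.013), from 6.27, 6.92 and 6.88 to 7.73, 7.62 and 7.60 in WT and from 5.44, 6.30 and 6.33 to 6.97, 7.0 and 6.92 in p53KO cells. Neither call of DNAJC12 held without the first untreated array of its genotype, which left 0.75 and 0.65. DNAJC14, another protein of that membrane, rose by 0.62 in WT and 0.81 ± 0.21 (adjusted p 0.0064) in p53KO cells, and the p53KO call was lost without the first untreated array (0.49). CCT5 rose by 0.53 (adjusted p 0.022) and 0.77 ± 0.18 (adjusted p 0.0025). The WT call of CCT5 was lost without the first or second untreated array (0.52 and 0.45) or the first or second 10 nM array (0.50 each). CCT6A rose by 0.41 in both genotypes; its WT call was lost without the first untreated or first 10 nM array (0.35 each), and its p53KO call without any 1 of 5 of the 6 arrays (0.27 to 0.45). In WT cells CCT5 (0.58) and CCT6A (0.55) were not called without quantile normalisation. With the slide as a random block CCT5 and CCT6A were called in neither genotype and DNAJB14 was not called in p53KO cells. On its 2 other probes DNAJB14 gave 0.32 and 0.98 in WT and 0.32 and 0.73 in p53KO cells. Those of DNAJC12 gave 0.21 and 0.80 in WT and 0.39 and 0.86 in p53KO cells. With the mean of its kept probes CCT6A was called in neither genotype (0.38 and 0.32).

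Each genotype had 3 genes called lower at 10 nM, and 0 of these 6 were called in the test of the difference between genotypes. In WT cells these were DNAJC9 (-0.90, adjusted p 0.013), DNAJC15, a protein of the inner mitochondrial membrane (-0.82 ± 0.26, adjusted p 0.016), and HSPA2, an HSP70 best known from male germ cells (-0.78, adjusted p 0.0059). In p53KO cells they were DNAJB6, which holds back aggregation (-1.30 ± 0.31, adjusted p 0.0038), HSPA1B (-0.80 ± 0.24, adjusted p 0.018) and DNAJA3 (-0.43 ± 0.14, adjusted p 0.029). In WT cells the DNAJC9 call was lost without the first untreated (-0.72) or the second or the third 10 nM array (-0.77 and -0.78), and the DNAJC15 call without the third untreated (-0.70) or first 10 nM array (-0.67). In p53KO cells the calls of HSPA1B (-0.76 to -0.78) and DNAJA3 (-0.35 to -0.42) were lost without the second or the third untreated or the first 10 nM array, and that of DNAJA3 also without the third 10 nM array. HSPA2 was at -0.04, not called, in the authors' processed intensities and at -0.73 (adjusted p 0.072) with the slide as a random block. That block also left DNAJC9 and DNAJC15 in WT and HSPA1B and DNAJA3 in p53KO cells not called. Without quantile normalisation DNAJC9 (-0.70) and DNAJC15 (-0.77) were not called in WT cells. The DNAJB6 value rests in part on the first untreated p53KO array, which read 10.95 against 9.28 and 9.48 on the other 2. The 3 p53KO falls were not called without quantile normalisation, where DNAJB6 stood at -0.87, HSPA1B at -0.28 and DNAJA3 at 0.05.

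At 1 nM, 2 chaperone genes were called higher and 2 lower in WT cells, where 9.31% of all features were called (4.06% higher, 5.25% lower), and 0 in p53KO cells, where 0.807% were; 8 had an unadjusted p under 0.05 in p53KO cells. HSPA4L and DNAJB2 rose and DNAJC9 and HSPA2 fell in WT cells, with differences of 1.21, 0.69, -1.05 and -0.90 in that order. At 10 nM, set against the same untreated arrays, they stood at 1.04, 1.31, -0.90 and -0.78. All 1 nM arrays were on 1 slide of their own, so slide and dose cannot be told apart, and with the slide as a random block 0 of the 4 calls held, at differences of 1.13, 0.81, -1.18 and -0.81 in the same order with larger standard errors. Without quantile normalisation HSPA4L (1.01), DNAJB2 (0.53) and DNAJC9 (-1.09) were not called. Without the second WT 1 nM array DNAJB2 (0.53), DNAJC9 (-0.73) and HSPA2 (-0.86) were not called, and DNAJC9 (-0.87) was not called without the first untreated array. HSPA1B stood at -0.63 in WT and -0.74 in p53KO cells at this dose and was not called, but without the 4 arrays that stand apart it was called lower in both (-0.57 and -0.81), and HSPA8 was called lower in WT cells (-0.43).

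HSPA4L was raised by low doses in WT cells. It read 8.12, 7.74 and 7.97 on untreated WT arrays, 9.04, 9.20 and 9.24 at 1 nM, 8.94, 8.96 and 9.06 at 10 nM and 8.07, 7.90 and 7.60 at 100 nM. In p53KO cells it read 7.73, 7.79 and 7.89 untreated, 7.90, 7.48 and 7.85 at 1 nM, 7.71, 7.57 and 7.45 at 10 nM and 7.99, 7.81 and 7.60 at 100 nM. The WT arrays of 1 and 10 nM thus lay above all other arrays of the study, and the p53KO actinomycin D arrays stayed between 7.45 and 7.99. The rise in WT cells was 1.21 ± 0.19 (adjusted p 0.00024) at 1 nM and 1.04 ± 0.19 (adjusted p 0.00021) at 10 nM, against -0.06 and -0.23, not called, in p53KO cells. Without quantile normalisation HSPA4L rose by 1.07 at 10 nM in WT cells, and stood at 1.01, not called, at 1 nM.

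The test of the difference between the HSPA4L responses gave 1.28 ± 0.27 (adjusted p 0.17) at 1 nM, not called, and 1.26 ± 0.27 (adjusted p 0.03) at 10 nM. This was the 1 chaperone gene called in that test at 10 nM, where 0.425% of all features were called (0.243% higher). The call was lost on leaving out 9 of the 12 arrays in turn, with values from 1.16 to 1.33 and an adjusted p of 0.059 to 0.1, and without quantile normalisation (0.93, adjusted p 0.48). It held without the 4 arrays that stand apart (1.39, adjusted p 0.0021) and with the slide as a random block (1.28, adjusted p 0.0076).

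DNAJB2 read 8.60, 8.89 and 8.79 on untreated WT arrays, 9.19, 9.78 and 9.39 at 1 nM and 10.11, 10.06 and 10.06 at 10 nM, and in p53KO cells 8.78, 8.90 and 8.94, then 8.66, 9.13 and 8.83, then 9.30, 9.22 and 9.42. At 10 nM the treated arrays of both genotypes were above their untreated arrays, with the WT ones higher. DNAJB2 rose by 0.69 ± 0.16 (adjusted p 0.0076) at 1 nM and 1.31 ± 0.16 (adjusted p 2.1e-06) at 10 nM in WT cells and stood at 0.00 and 0.44 (adjusted p 0.053), not called, in p53KO cells. The responses differed by 0.87 ± 0.23 at 10 nM (adjusted p 0.091), not called. With the replicate number, which pairs the genotypes, as a block the same difference of DNAJB2 had an adjusted p of 0.015 and was called.

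DNAJC9 read 10.80, 9.58 and 10.26 at 1 nM and 10.85, 10.11 and 10.14 at 10 nM in WT cells, all under the lowest untreated array at 11.04. Its differences were -1.05 ± 0.27 (adjusted p 0.015) and -0.90 ± 0.27 (adjusted p 0.013), against -0.10 and 0.25 in p53KO cells, and the responses differed by -0.95 (adjusted p 0.61) and -1.15 ± 0.38 (adjusted p 0.21), not called. HSPA2 was near the detection limit: 5.45, 5.74 and 5.29 on untreated WT arrays, then 4.77 and 2 undetected readings of 4.51 at 1 nM. Its difference at 1 nM was -0.90 ± 0.21 (adjusted p 0.0077), and the responses differed by -0.66 (adjusted p 0.72) at 1 nM and -0.99 (adjusted p 0.15) at 10 nM. No chaperone gene was called in the test of the difference at 1 nM (0% of features called, 5 at unadjusted p under 0.05) or at 100 nM (0.234%, 3 at unadjusted p under 0.05).

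**Figure D5:**
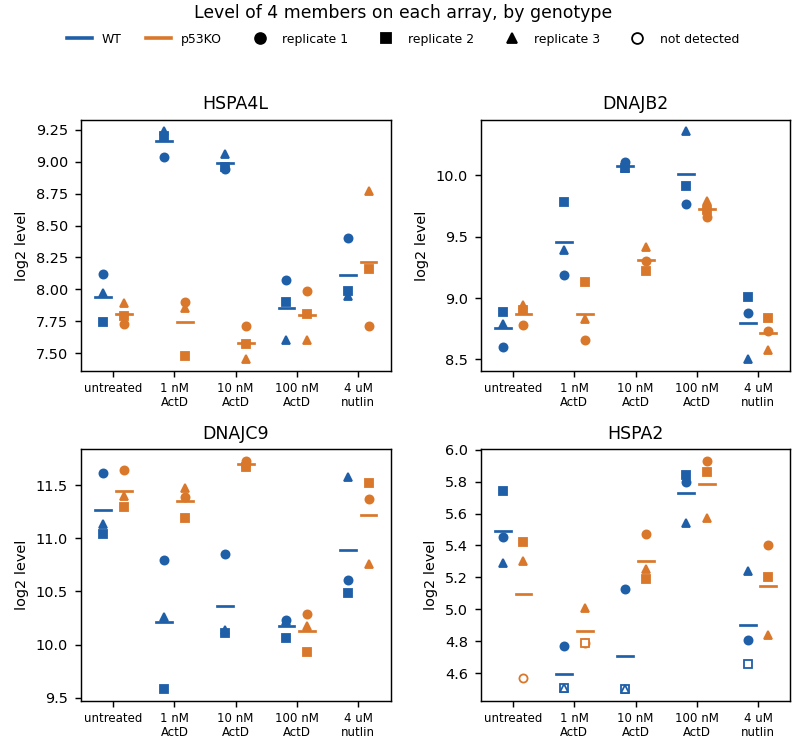
Normalised log2 level (vertical axis) of HSPA4L, DNAJB2, DNAJC9 and HSPA2 on each array, by treatment and genotype, with the group mean as a bar and open symbols where the probe was not detected. HSPA4L is raised at 1 and 10 nM on all 6 WT arrays and on none of the 6 p53KO arrays, and lies at 7.60 to 8.07 at 100 nM.

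Untreated WT and p53KO cells did not differ in any chaperone gene past the threshold, where 1.28% of all features were called and 10 chaperone genes had an unadjusted p under 0.05. HSPA1B stood at -0.54 ± 0.24, WT minus p53KO (adjusted p 0.35), DNAJB1 at -0.54 ± 0.23 (adjusted p 0.32), CCT4 at -0.50 (adjusted p 0.21) and DNAJC12 at 0.66 (adjusted p 0.30). Without the 4 arrays that stand apart HSPA1B (-0.67), DNAJB1 (-0.66) and DNAJC12 (0.58) were called. On the pair of nutlin arrays that go against their labels HSPA1B read 13.19 where labelled WT and 12.04 where labelled p53KO, and DNAJB1 read 10.65 and 9.69.

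Nutlin-3 gave no called chaperone gene in either genotype. Of all features 0.234% were called in WT and 0.0521% in p53KO cells, and 7 and 4 chaperone genes had an unadjusted p under 0.05. The furthest were DNAJC19, a part of the mitochondrial import motor, at 0.57 (adjusted p 0.25) and HSPA2 at -0.59 (adjusted p 0.22) in WT cells, and DNAJC30 at 0.58 (adjusted p 0.40) and HSPA4L at 0.41 (adjusted p 0.52) in p53KO cells. HSPA4L read 8.40, 7.99 and 7.95 on the WT nutlin arrays and 7.71, 8.16 and 8.77 on the p53KO ones. The readings of 7.95 and 8.77 came from the third arrays, which go against their labels. The p53KO difference of HSPA4L therefore rests in part on such an array. The test of the difference between genotypes called 0 as well (0% of features, 1 at unadjusted p under 0.05). Without the 4 arrays that stand apart HSPA2 was called lower in WT cells.

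Partners of these chaperones were followed in a list of 41 co-chaperones, exchange factors and regulators, of which 37 were kept. At 100 nM 16 were called higher and 8 lower in WT (median 0.18) and 14 and 9 in p53KO cells (median 0.14). These were 64.9% and 62.2% of the list, near the 65.7% and 66.1% of all features. Without quantile normalisation the splits were 3 to 16 and 2 to 15. CLPX, which unfolds proteins for the mitochondrial protease, fell most (-1.79 ± 0.14 and -1.60), followed by SUGT1, an HSP90 co-chaperone (-1.29 and -1.24). STIP1, which hands clients from HSP70 to HSP90, fell (-0.70 and -0.63), as did BAG3, an HSF1 target and exchange factor of HSP70 (-0.40 and -0.55). HSF1 itself was higher by 0.81 and 0.86 and TRAP1, the mitochondrial HSP90, by 0.68 and 0.84, both relative to the bulk of features. Values of single list genes without quantile normalisation are not given here. The highest differences on the list were 0.96 in WT and 1.03 in p53KO cells.

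At 10 nM the list gave 4 higher and 4 lower in WT and 3 and 4 in p53KO cells. These were 21.6% of the list in WT and 18.9% in p53KO cells, below the 30.9% and 21.6% of all features. FKBP5, an HSP90 partner in steroid receptor complexes, (-1.23) and the matrix protease LONP1 (-0.67) were among the list genes called lower in WT cells. CDC37L1 (0.70) and GRPEL1 (0.54), the exchange factor of HSPA9, were among those called higher there. The highest difference on the list in WT cells was 0.80. In p53KO cells LONP1 (-0.87) and STUB1, a ubiquitin ligase bound to HSP70 (-0.77), were lowest, and SERPINH1, a collagen chaperone, rose by 1.22. TRAP1 fell (-0.41 in WT, -0.51 in p53KO cells) at this dose. At 1 nM FKBP5 (-0.68) was lower in WT and BAG3 (-0.69) in p53KO cells. Each was 2.7% of the list, against 9.31% of all features called in WT and 0.807% in p53KO cells.

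Other probes of the same genes did not always give the same value. Of 14 further kept probes on 11 chaperone genes, 7 differed by over 0.5 from the probe used at 100 nM in each genotype. HSPD1 gave 1.35 and 0.71 in WT cells on its other probes against -0.01, HSP90AA1 gave 0.91 against 0.19, HSPA4 gave 1.23 against 0.24 and DNAJB12 gave -1.65 against 0.25. The differences of HSPD1, HSP90AA1 and HSPA4 above, none of them called, therefore hold for the probe with the highest mean and not for each probe. DNAJC12 gave -0.44 and -0.55 on its other probes in WT cells against -1.37, and -0.04 and -0.38 in p53KO cells against -0.68. The lower-mean HSPA8 probe gave nearly the same fall as the one used, as stated above.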

How the data were processed

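For each probe the authors deposited, per the file headers, an average bead intensity with its detection p-value on every array, made with BeadStudio, per the submitters' processing notes (version not given in the sources used here). A second deposited intensity table, with values below 0, was processed by the authors in a way not given in the sources used here. It served as an alternative, floored at 16. The tables hold 26 columns of other samples, not used here.

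The neqc function of limma 3.58.1 (R 4.3.3) corrected the background of the raw intensities and normalised them (negative controls inferred from detection p, offset 16, quantile normalisation, log2). Probes were kept when some group had all 3 of its arrays at a detection p under 0.01, and each gene was represented by its kept probe with the highest mean. All 30 arrays entered 1 linear model (lmFit, contrasts.fit, eBayes, 20 residual degrees of freedom), and p-values were adjusted by Benjamini-Hochberg over the 11526 features of each of 15 contrasts. Where a probe was undetected on all arrays of 1 group, the fold is a bound against the higher of its own signal and the lowest detected signal of each array. The fit was tested on simulated data. The number of arrays limits the precision.

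The chaperone genes, the co-chaperone list and the tests were chosen with earlier results of these data known. The text names a fixed set of stress-inducible and constitutive chaperones and the 4 highest and 4 lowest called genes of each contrast. Of the co-chaperones, BAG3, HSF1, HSF2, STIP1, TRAP1 and GRPEL1 were to be named where called. Some of the other co-chaperones called higher or lower are named too, but not the highest of each contrast. Other genes named with values, such as HSPA14, HSPBP1, HSPBAP1, DNAJB5, CCT8L2 and CCT6B, were chosen after their values were seen. Same-numbered WT and p53KO arrays deviated together (correlations of 0.6 to 0.78 untreated, 0.41 to 0.52 at 1 nM, 0.35 to 0.42 at 10 nM and 0.23 to 0.47 at 100 nM), which pairs them. Those of nutlin (-0.44 to 0.01) did not. Promoters are RefSeq windows of GRCh38.p14.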

Additional observations from a re-analysis of the deposited data

Results flagged for a closer look

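HSPA4L, an HSP110 gene, responded differently in the genotypes at 10 nM actinomycin D by the test of the difference itself: the WT response was 1.26 ± 0.27 (SE) above the p53KO response on the log2 scale, limma adjusted p 0.03 over all features. The 3 WT arrays of 10 nM read 8.94, 8.96 and 9.06 and the 3 p53KO arrays 7.71, 7.57 and 7.45. The adjusted p was 0.059 to 0.1 on leaving out 9 of the 12 arrays in turn.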

How the results depend on the processing

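Counts of called chaperone genes at 100 nM kept within 1.5 times under each alternative run, while their split did not: without quantile normalisation the WT split of 19 higher to 19 lower became 5 to 31, the p53KO split of 18 to 21 became 4 to 29, and 100 against 10 nM became 3 to 34 and 3 to 50. The same setting turned CCT4 at 100 nM to -0.43 in WT and -0.26 in p53KO cells, CCT4 at 100 against 10 nM to -0.67 and -0.75, CCT5 at 100 against 10 nM in p53KO cells to -0.60 and DNAJA3 at 10 nM in p53KO cells to 0.05, and gave 1 call at 1 nM in WT, 19 at 10 nM in p53KO cells (10 before) and 0 in the 10 nM test of the difference. Over 88 results of named genes and these alternatives, 915 of 991 values kept direction and side of the threshold, 70 lost the call and 6 turned; leaving out single arrays kept 472 of 534 and lost 62. The authors' processed values gave 2 calls in the 100 nM test of the difference and left HSPA2 at -0.04, not called, at 1 and 10 nM in WT cells. Fitting only the groups compared gave 2 at 1 nM in WT cells and 2 in the 10 nM difference. The replicate block gave 2 in the 10 nM difference, HSPA4L and DNAJB2, and changed no other count of calls by over 1.5 times. Chosen after seeing the data, the block without the 4 arrays that stand apart gave 5 untreated, 2 in the 1 nM and 5 in the 10 nM difference. Slide as a fixed block gave 9 under nutlin in each genotype (resting on the 1 slide shared with 1 untreated array of each), 7 untreated, and 1, 4 and 1 in the 1, 10 and 100 nM differences. Slide as a random block (correlation 0.501) gave 0 at 1 nM in WT, 6 and 4 at 10 nM in WT and p53KO, 3 and 4 under nutlin, 1 untreated, and 1, 2 and 1 in the differences. Without the 4 arrays there were 9 at 1 nM in WT, 1 at 1 nM in p53KO, 1 under nutlin in WT, 3 untreated and 1 in the 1 nM difference. Without the first untreated arrays the 10 nM difference had 0. Without the third nutlin arrays there were 1 at 1 nM in p53KO, 5 untreated, and 1 and 2 in the 1 and 10 nM differences. Leaving out single arrays gave 1 to 4 calls at 1 nM in WT (1 without the second 1 nM array), 8 to 12 at 10 nM in WT (8 without the first 10 nM array, 9 without the first untreated array), 7 to 10 at 10 nM in p53KO, 35 to 38 and 36 to 39 at 100 nM, 33 to 36 and 33 to 38 at 100 against 10 nM, 0 to 1 in the 1 and 10 nM differences and 0 elsewhere. The cause of these shifts was not tested. Genes near background (HSPA1A, HSPA2, DNAJB5, DNAJC4, DNAJC30) are limited by signal.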
